A study of Saccharomyces cerevisiae with 35 samples.

Results

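The cell wall integrity pathway and a set of its reported target genes were followed as 10 genes of Saccharomyces cerevisiae, of 6717 genes in the deposited count table. The genes were chosen by name as members of the pathway or reported targets of it, with earlier results of these data known, and the rule used no level or change. They are SLT2, RLM1 and KDX1 (signalling), PRM5 (a transcriptional readout of it), FKS1 and FKS2 (glucan synthesis), and CRH1, PST1, PIR3 and CWP1 (cell wall proteins). All 10 passed the filter on low counts in every fit. FKS2 carries the symbol GSC2 in the RefSeq annotation and was matched by its identifier, YGR032W.

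Cultures of 4 diploid strains were grown in rich YPD medium at 30 °C and shifted to 0.7 M NaCl, and rRNA-depleted RNA was sequenced from cells collected before the shift (unstressed), then 30 min after it and again at 3 h. BY4743 is the laboratory strain, with the genotype MATa/α his3Δ1/his3Δ1 leu2Δ0/leu2Δ0 LYS2/lys2Δ0 met15Δ0/MET15 ura3Δ0/ura3Δ0. BC187 is a vineyard strain of the Wine/European lineage, NCYC3290 is a West African strain, and YPS128 was isolated from a North American oak site. No strain was treated with anything but NaCl. Each culture gave a library at each time, with 3 cultures per strain, except that YPS128 replicate 3 had no library at 30 min. The study used 2 NaCl-treated replicates of YPS128, so YPS128 replicate 3 at 3 h was left out of the fit, which held 34 of the 35 libraries, and its values are given here beside the others. The labels list 0.7 M NaCl for the unstressed libraries also, and these were taken as collected before the shift, as the study describes. NCYC3290 and YPS128 were grouped by the study as the NaCl-sensitive strains, and contrasts of this pair with BY4743 and BC187 compare these 4 strains, not classes of strains.

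Counted reads came to between 3629637 and 5866906 a library (median 4732586). Levels are given as CPM, a gene's count relative to its library total scaled by TMM factors (trimmed mean of M-values, factors of 0.642 to 1.59). No reads of URA3 or LEU2 were counted in any BY4743 library, as its genotype gives. In bulk RNA, fewer cells with a transcript and less transcript per cell cannot be told apart. None of the 10 genes overlapped another annotated gene, and every 100-base window of each was unique in the reference genome.

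The pathway senses strain on the cell wall and plasma membrane through surface sensors, which activate the small GTPase Rho1, protein kinase C and a MAP kinase cascade that ends in Slt2. Slt2 phosphorylates the transcription factor Rlm1, which binds AT-rich sites with the flanks CTA and TAG and drives genes for wall proteins, for glucan synthesis and for parts of the pathway itself. In budding yeast the pathway is known for its part in polarised growth, heat, wall-damaging drugs and adaptation to changes in osmolarity.

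At 3 h in NaCl, transcripts of 6 of the 10 genes (PRM5, KDX1, FKS2, PST1, PIR3 and CWP1) were higher than in unstressed cells in each of the 4 strains, a pattern found in 15.8% of the 5997 genes tested. Of the 10, PIR3 rose the most in BY4743, BC187 and NCYC3290 and PRM5 in YPS128, where its level went from 5 reads in 3 unstressed libraries to 1115 reads in 2 libraries at 3 h. SLT2 and RLM1 rose at 3 h in NCYC3290 and YPS128 and, with TMM, did not pass the test in BY4743 or BC187. FKS1 did not pass the test at 3 h in any strain. Of the 10 genes, 7 were higher at 3 h in BY4743 (23.8% of all tested genes), 6 in BC187 (30.6%), 9 in NCYC3290 (32.4%) and 9 in YPS128 (34.1%). None was lower at 3 h in any strain by edgeR, by an unadjusted p under 0.05 or by DESeq2, against 20.4%, 23.9%, 27.4% and 29.1% of all genes. The median log2 fold change over the 10 genes was 2.25 in YPS128, 2.64 in NCYC3290, 1.39 in BC187 and 1.31 in BY4743, while the medians of all genes in the 4 strains lay between 0.04 and 0.09. At 30 min, 7 genes were higher and 2 lower in BY4743 (33.3% and 29.3% of all genes). NCYC3290 had 4 higher and 2 lower (16.5% and 10.8%), BC187 had 2 and 2 (18.2% and 15.8%), and YPS128 had 0 and 2 (8.5% and 5.94%). At that time 0 of the 10 were higher in all 4 strains, a pattern of 5.99% of all genes. With scaling by library totals, 7 genes were higher at 3 h in BY4743, 8 in BC187 and 10 each in NCYC3290 and YPS128, where 29.2%, 40.5%, 56.6% and 60.7% of all genes were higher. DESeq2 also called 0 of the 10 higher in YPS128 at 30 min, and 3 had an unadjusted p under 0.05 in edgeR.

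The flanks of the Rlm1 site, CTA and TAG with any 4 bases between them, were searched on both strands in the 800 bases before each start codon of the S288c R64 reference from RefSeq, which is not the sequence of the wild strains. They matched in 5 of the 10 genes, RLM1, FKS2, PST1, PIR3 and CWP1, and in 13.9% of 6003 genes with such a window. The 5 matches are shown because Rlm1 is a factor through which the pathway is known to act, and its binding at them was not tested. Each is printed on the coding strand of its gene with 10 bases on either side and the match in capitals.
RLM1 (chrXVI:381439-381468, minus strand): gagatgaaagCTAATAATAGaaacagctcg
FKS2 (chrVII:547918-547947, plus strand): aactggtgtgCTAAGAATAGagtttcataa
PST1 (chrIV:563212-563241, plus strand): ttacgagtctCTAAAAATAGcgtaggcaca
PIR3 (chrXI:144111-144140, plus strand): gattagcaaaCTAATTATAGatcaaaggcc
CWP1 (chrXI:260736-260765, plus strand): tacgtcataaCTAAAAATAGcgttagccac
PST1 and CWP1 had the same matching letters. Their first bases lay between -386 (CWP1) and -280 (PIR3), counted back from the base before the start codon. In a window of 300 bases the match remained in PIR3, against 5.66% of 6007 genes.

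PRM5 and KDX1, the 2 genes whose change from unstressed cells differed most between the strain pairs at 3 h, had no exact match. Inexact matches were not searched in any gene, so no share of genes with them is given. The PRM5 sequence below holds ctaaaaataa, which departs from the PST1 and CWP1 match in its last letter. Likewise, the 300 bases before SLT2 hold ttaaaaatag, which departs from that match in its first letter. Of 6 motifs searched, PRM5 had TGAAACA, the pheromone response element bound by Ste12, at -246, as had CRH1, at -122 and -787, and KDX1 had TGACGT, which resembles the site of the osmotic stress factor Sko1, at -217 and -534. Among all genes, TGAAACA occurred in 7.19% and TGACGT in 7.24% of 300-base windows. In 800-base windows the shares were 18.8% and 21.2%, and 2 of the 10 genes had each motif. The 300 bases before each start codon are shown for these genes, with those letters in capitals.
PRM5 (chrIX:141570-141869, minus strand): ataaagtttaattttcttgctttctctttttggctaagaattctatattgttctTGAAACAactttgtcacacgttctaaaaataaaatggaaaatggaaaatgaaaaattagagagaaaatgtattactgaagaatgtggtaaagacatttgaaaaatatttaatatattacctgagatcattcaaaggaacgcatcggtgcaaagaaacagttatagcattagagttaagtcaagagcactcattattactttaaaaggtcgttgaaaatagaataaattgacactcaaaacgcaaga
KDX1 (chrXI:150688-150987, minus strand): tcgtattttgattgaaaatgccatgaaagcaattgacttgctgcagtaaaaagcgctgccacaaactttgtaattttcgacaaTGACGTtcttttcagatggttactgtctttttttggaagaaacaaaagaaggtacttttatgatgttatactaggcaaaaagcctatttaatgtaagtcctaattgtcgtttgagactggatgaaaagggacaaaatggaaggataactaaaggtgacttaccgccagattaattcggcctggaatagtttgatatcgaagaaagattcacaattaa
The stress response element CCCCT, bound by Msn2 and Msn4, matched within 800 bases of SLT2, PIR3 and CWP1 (48.2% of genes). GNGGCNCA, the element of the calcineurin-dependent factor Crz1, matched before PRM5, CRH1 and PST1 (13.1%), and CGCGAAA, bound by Swi4 with Swi6, before FKS1 and CWP1 (7.20%). CWP1 also had TGACGT at -395, on the opposite strand and next to its CTA and TAG match (21.2% of 800-base windows).

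SLT2 (YHR030C, chrVIII:168890-170344, minus strand, one coding exon) encodes the MAP kinase at the end of the cascade. In BY4743 it was at 88.8, 140.0 and 123 CPM unstressed, at 260.4, 244 and 163 CPM at 30 min and at 104, 109.7 and 139 CPM at 3 h. The 30 min values all exceeded the values before and after. In BC187 it was at 164, 151 and 134 CPM unstressed, at 141, 175 and 142 CPM at 30 min and at 162, 173 and 222 CPM at 3 h, with overlap among the 3 times. In NCYC3290 it was at 93.5, 114 and 99.8 CPM unstressed, at 73.0, 76.1 and 84.0 CPM at 30 min and at 279, 262 and 348 CPM at 3 h, and in YPS128 it was at 126, 139.6 and 110.0 CPM unstressed, at 54.9 and 76.1 CPM at 30 min and at 494, 413 and 479.9 CPM at 3 h. In both of these strains the 30 min libraries were the lowest and the 3 h libraries the highest, with no overlap between times. SLT2 rose at 30 min in BY4743, with a log2 fold change of 0.91 ± 0.18 (edgeR adjusted p = 6.16e-05), and fell in YPS128, with -0.92 ± 0.21 (edgeR adjusted p = 0.00284). At 3 h it rose by 1.55 ± 0.18 (edgeR adjusted p = 1.72e-08) in NCYC3290 and by 1.90 ± 0.20 (edgeR adjusted p = 1.62e-09) in YPS128, while the values were 0.03 ± 0.18 in BY4743 and 0.32 ± 0.18 in BC187. With library totals SLT2 also passed as higher in BC187 at 3 h (0.59, edgeR adjusted p = 0.0344). From 30 min to 3 h it fell by 0.88 on the log2 scale in BY4743 and rose by 1.92 in NCYC3290 and 2.82 in YPS128, each past the threshold. Without YPS128 replicate 1, the fall in YPS128 at 30 min was -0.74 and did not pass (edgeR adjusted p = 0.122).

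RLM1 (YPL089C, chrXVI:379120-381150, minus strand) encodes the MADS-box transcription factor activated by Slt2. Its levels spanned 57.3 to 116 CPM unstressed, where every BC187 library lay above those of BY4743 and YPS128 and NCYC3290 overlapped all 3. At 30 min they were 77.0 to 86.2 CPM in BY4743 and BC187 and 42.7 to 64 CPM in NCYC3290 and YPS128. At 3 h RLM1 was at 43.2, 74.5 and 78.8 CPM in BY4743, at 83.9, 121 and 141 CPM in BC187, at 113, 156 and 191 CPM in NCYC3290 and at 199.5, 193 and 199 CPM in YPS128. The YPS128 libraries were the highest, BC187 and NCYC3290 overlapped, and every BY4743 library was below every NCYC3290 one. RLM1 rose at 3 h by 1.60 ± 0.18 (edgeR adjusted p = 9.1e-09) in YPS128 and by 0.79 ± 0.16 (edgeR adjusted p = 0.000126) in NCYC3290, with values of -0.30 ± 0.16 in BY4743 and 0.07 ± 0.16 in BC187. It fell at 30 min in NCYC3290 (-0.54 ± 0.17) and YPS128 (-0.63 ± 0.20). BC187 did not pass with edgeR and TMM but was called lower in 8 of the 20 alternative fits, the DESeq2 Wald test among them, with values of -0.45 to -0.41. Neither fall passed with no replicate block in the model (-0.56 and -0.71), the NCYC3290 fall did not pass without NCYC3290 replicate 2 (-0.38) or 3 (-0.56), and the YPS128 fall did not pass without YPS128 replicate 1 (-0.79), 2 (-0.48) or 3 (-0.65), nor with upper-quartile factors (-0.56) or a term per culture (-0.64).

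KDX1 (YKL161C, chrXI:149386-150687, minus strand) encodes a kinase-like relative of Slt2. In BY4743 it was at 15.7, 17.1 and 18.1 CPM unstressed, at 56.8, 60.3 and 53.3 CPM at 30 min and at 62.8, 73.7 and 74.7 CPM at 3 h. In BC187 it was at 35.6, 46.2 and 40.6 CPM unstressed, at 52.2, 77.5 and 64.3 CPM at 30 min and at 125, 158 and 147 CPM at 3 h. In both strains, and also in NCYC3290, the 3 times did not overlap. In NCYC3290 it was at 9.29, 14.3 and 11.6 CPM unstressed, at 25.2, 25.8 and 21.3 CPM at 30 min and at 259, 254 and 334 CPM at 3 h, and in YPS128 it was at 4.94, 8.71 and 8.44 CPM unstressed, at 6.98 and 13.2 CPM at 30 min and at 196, 199 and 183 CPM at 3 h. At 3 h the 6 libraries of NCYC3290 and YPS128 (183 to 334 CPM) lay above the 6 of BY4743 and BC187 (62.8 to 158 CPM), and at both earlier times they lay below them. KDX1 rose at 3 h by 2.07 ± 0.15 (edgeR adjusted p = 3.21e-12) in BY4743 and 1.83 ± 0.14 (edgeR adjusted p = 9.56e-12) in BC187. In NCYC3290 and YPS128 it rose by 4.62 ± 0.17 (edgeR adjusted p = 6.84e-19) and 4.83 ± 0.18 (edgeR adjusted p = 9.16e-19), which are folds of 24.6 and 28.4. At 30 min it had already risen in BY4743 (1.72), NCYC3290 (1.08) and BC187 (0.66), and the YPS128 value of 0.53 ± 0.24 did not pass the test.

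PRM5 (YIL117C, chrIX:140613-141569, minus strand) encodes a membrane protein that is induced by mating pheromone and by the cell wall integrity pathway. In BY4743 it was at 19.6, 35.5 and 21.8 CPM unstressed, at 47.6, 41.5 and 43.1 CPM at 30 min and at 30.6, 51.2 and 48.4 CPM at 3 h. In BC187 it was at 32.1, 55.7 and 26.3 CPM unstressed, at 23.0, 26.8 and 22.8 CPM at 30 min and at 67.5, 77.1 and 67.3 CPM at 3 h. Levels in these strains spanned 19.6 to 77.1 CPM over the 3 times. In NCYC3290 it was at 0.864, 1.35 and 1.59 CPM unstressed, at 2.26, 4.07 and 3.48 CPM at 30 min and at 54.8, 66.7 and 73.0 CPM at 3 h, and in YPS128 it was at 0, 1.24 and 0.264 CPM unstressed, at 2.18 and 1.72 CPM at 30 min and at 107, 82.0 and 98.4 CPM at 3 h. Before the shift the 6 libraries of NCYC3290 and YPS128 held 4, 5 and 8 reads and 0, 4 and 1 reads, and every one lay below the lowest BY4743 or BC187 library. At 3 h the NCYC3290 libraries (54.8 to 73.0 CPM) overlapped those of BC187 (67.3 to 77.1 CPM) and lay above those of BY4743 (30.6 to 51.2 CPM). The YPS128 libraries (82.0 to 107 CPM) lay above all of these. The part of read mapping in the low unstressed counts was not tested.

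The rise of PRM5 at 3 h was 7.71 ± 0.41 (edgeR adjusted p = 1.84e-15) on the log2 scale in YPS128 and 5.65 ± 0.33 (edgeR adjusted p = 2.49e-14) in NCYC3290. It was 0.80 ± 0.22 (edgeR adjusted p = 0.00414) in BY4743 and 0.94 ± 0.22 (edgeR adjusted p = 0.000558) in BC187. Because the unstressed counts were so low, the ratio of summed counts per scaled library was also taken, with a 95% interval that covers counting error only. This ratio was 50.2 (31.3 to 86.5) in NCYC3290 and 219 (93.8 to 677) in YPS128, against 1.77 (1.56 to 2.01) in BY4743 and 1.94 (1.74 to 2.17) in BC187. The fitted value in YPS128 depends on the unstressed library with 4 reads, since it was 9.61 without YPS128 replicate 2. At 30 min PRM5 was higher in BY4743 (0.80 ± 0.22) and NCYC3290 (1.37 ± 0.48) and lower in BC187 (-0.61 ± 0.23), and the YPS128 value of 2.01 ± 0.82 rested on 5 and 6 reads and did not pass the test (edgeR adjusted p = 0.102), though it did without YPS128 replicate 2 (4.00). The call in NCYC3290 was lost without any 1 of its 3 replicates (1.35, 1.21 and 1.5), that in BC187 without replicate 1 (-0.73) or 2 (-0.35), with a term per culture (-0.60), with no replicate block (-0.64) or with library totals (-0.58), and that in BY4743 without replicate 1 (0.56). The BY4743 rise at 3 h did not pass without replicate 3 (0.60).

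Genes of haploid cells, which diploids repress and several of which respond to pheromone as PRM5 does, were checked as a list of 10 (MFA1, MFA2, STE2, STE3, MF(ALPHA)1, MF(ALPHA)2, FUS1, STE4, GPA1 and HO). Their summed level, in CPM without the TMM factors, was 9.63 to 12.7 in unstressed YPS128 and 71.2 to 91.8 at 3 h, and 25.2 to 27.6 and 68.0 to 81.3 in NCYC3290. It was 20.3 to 25 and 33.1 to 41.0 in BY4743, with 60.1 to 78.0 at 30 min, and 15.2 to 20.9 and 47.9 to 71.7 in BC187. On this scale of library totals the median log2 fold change of all genes at 3 h was itself 0.85 in YPS128 and 0.65 in NCYC3290. It was 0.34 in BC187 and 0.19 in BY4743, with 0.35 in BY4743 at 30 min, so part of each rise lies in the scale. None of the 10 was at 0 in all libraries of a group. The part of this list's rise in the change of PRM5 was not tested.

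FKS1 (YLR342W, chrXII:809997-815627, plus strand) and FKS2 (YGR032W, chrVII:548264-553951, plus strand) encode alternative catalytic subunits of the glucan synthase that makes the main fibre of the wall. FKS1 is the form of growing cells, and FKS2 is known to be induced by stress through this pathway and calcineurin. FKS1 was at 3655 to 6579 CPM unstressed and 2606 to 6558 CPM at 3 h, with overlap among all strains, and replicate 2 was the highest unstressed library in each strain. Its response at 3 h was 0.07 ± 0.23 in BY4743 (interval -0.39 to 0.53), -0.22 ± 0.23 in BC187 (-0.68 to 0.24), 0.05 ± 0.23 in NCYC3290 (-0.41 to 0.51) and -0.13 ± 0.27 in YPS128 (-0.65 to 0.39). None of these passed the test with TMM, whereas with scaling by library totals FKS1 was higher at 3 h in NCYC3290 (0.63) and YPS128 (0.64, the opposite sign). In BY4743 FKS1 fell at 30 min, from 4772, 6084 and 4575 CPM to 2197, 2849 and 3992 CPM, a log2 fold change of -0.76 ± 0.24 (edgeR adjusted p = 0.0068). That fall did not pass without BY4743 replicate 1 (-0.60) or 2 (-0.58).

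FKS2 was at 104, 138 and 98.8 CPM unstressed, at 255, 291 and 335 CPM at 30 min and at 1222, 1483 and 936 CPM at 3 h in BY4743. BC187 had it at 88.7, 125 and 85.6 CPM unstressed, at 156, 190.0 and 149 CPM at 30 min and at 803, 1056 and 571 CPM at 3 h. In both, and also in NCYC3290 and YPS128, the 3 times did not overlap. NCYC3290 had it at 83.6, 124 and 93.8 CPM unstressed, at 172, 132 and 133 CPM at 30 min and at 663, 721 and 485 CPM at 3 h, and in YPS128 it was at 121, 168 and 118 CPM unstressed, at 224 and 186 CPM at 30 min and at 613, 835 and 427 CPM at 3 h. The 3 h libraries were the highest of each strain, and the rise at 3 h was largest in BY4743, with 3.43 ± 0.19 (edgeR adjusted p = 7.8e-15), and smallest in YPS128, with 2.35 ± 0.20 (edgeR adjusted p = 3.18e-11). BC187 and NCYC3290 lay between, with 3.02 ± 0.19 and 2.64 ± 0.19. At 30 min FKS2 was higher in BY4743 (1.38), BC187 (0.74) and NCYC3290 (0.58), and the NCYC3290 call was lost with no replicate block (0.56) and without replicate 1 (0.35) or 3 (0.56). YPS128 did not pass in the main fit but was called higher with upper-quartile factors (0.60) and with library totals (0.40). Its value was 0.83 without YPS128 replicate 2.

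Per kilobase of coding sequence, the FKS2 level in unstressed cells was 2.18% ± 0.055 (SD, n = 3 libraries) of the FKS1 level in BY4743 and 2.12% ± 0.038 in BC187. It was 2.04% ± 0.145 in NCYC3290 and 3.07% ± 0.19 in YPS128, which was above the other strains, and those overlapped. At 3 h the ratio was 22.7% ± 1.92 in BY4743, 20.2% ± 1.20 in BC187, 17.0% ± 0.954 in YPS128 and 12.3% ± 1.33 in NCYC3290 (n = 3 each, with the YPS128 library that was left out of the fit). The ranges of BY4743 and BC187 overlapped (20.9% to 24.7% and 18.9% to 21.2%), and YPS128 (16.2% to 18.0%) and NCYC3290 (10.9% to 13.6%) each stood apart. At 30 min the ratio was 9.97% ± 1.61 in BY4743 and between 2.65% and 4.57% in every library of the other strains. The ratio within a library needs no scaling between libraries, and it shows a shift of the 2 transcripts against each other rather than the course of either.

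**Figure D1:**
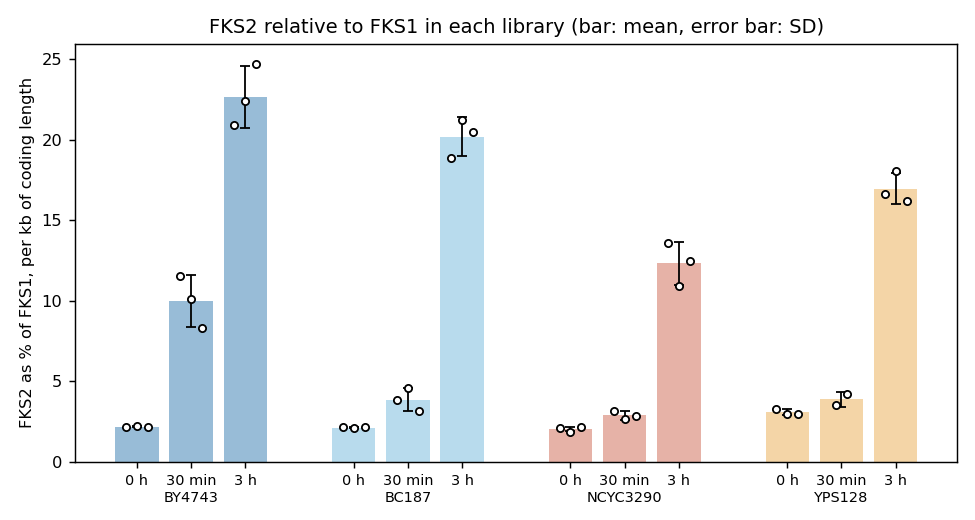
The level of FKS2 as a percentage of that of FKS1, both per kilobase of coding length, is plotted for each library (open points), with the mean (bar) and SD (error bar) of each strain and time. The 30 min bar of BY4743 (9.97%) stands above those of the other strains, and at 3 h all 4 strains are above 10%.

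CRH1 (YGR189C, chrVII:876669-878192, minus strand) encodes a transglycosylase that links chitin to glucan. It had the smallest rise at 3 h of the 4 wall genes in every strain, with levels of 319.5 to 698 CPM unstressed and 488 to 1005 CPM at 3 h, which overlap. It rose at 3 h in NCYC3290 (1.03 ± 0.19 (edgeR adjusted p = 3e-05)) and YPS128 (1.03 ± 0.21 (edgeR adjusted p = 9.47e-05)). BY4743 passed at both times (0.49 at 30 min and 0.52 at 3 h), but the 3 h call was lost without BY4743 replicate 1 (0.42) or 2 (0.59) or NCYC3290 replicate 3 (0.48) and the 30 min call without BY4743 replicate 1 (0.55) or 3 (0.26). Both were also lost with no replicate block in the model (0.46 at 30 min and 0.52 at 3 h). In BC187 the values were -0.40 ± 0.19 and 0.37 ± 0.19, neither past the threshold. With library totals both passed (-0.37 and 0.62), and CRH1 was also called lower at 30 min in NCYC3290 (-0.35).

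PST1 (YDR055W, chrIV:563527-564861, plus strand) encodes a glycosylphosphatidylinositol-anchored wall protein. It fell at 30 min and rose at 3 h in 3 of the 4 strains. In BY4743 it was at 145, 214 and 135 CPM unstressed, at 69.2, 67.0 and 88.8 CPM at 30 min and at 629, 599.8 and 478 CPM at 3 h. BC187 had it at 77.7, 98.3 and 50.8 CPM unstressed, at 38.8, 37.0 and 35.4 CPM at 30 min and at 446, 638 and 301 CPM at 3 h. In both, the 30 min libraries were the lowest and the 3 h libraries the highest, with no overlap. NCYC3290 had it at 70.0, 110.3 and 85.7 CPM unstressed, at 57.4, 40.0 and 43.8 CPM at 30 min and at 502, 683 and 467 CPM at 3 h, with the same order and no overlap. YPS128 was at 158, 209 and 100.0 CPM unstressed, at 161 and 99.9 CPM at 30 min and at 669.9, 759.6 and 416 CPM at 3 h, and its 30 min values overlapped its unstressed ones. The fall at 30 min was -1.11 ± 0.23 (edgeR adjusted p = 0.000137) in BY4743, -0.99 ± 0.24 (edgeR adjusted p = 0.00184) in BC187 and -0.88 ± 0.24 (edgeR adjusted p = 0.00577) in NCYC3290, and in YPS128 the value was -0.32 ± 0.26. The rise at 3 h against unstressed cells was largest in NCYC3290 (2.64 ± 0.24) and BC187 (2.62 ± 0.24), with 2.15 ± 0.25 in YPS128 and 1.82 ± 0.23 in BY4743, each past the threshold. Without replicate 2 of the strain, the falls in BC187 (-0.77) and NCYC3290 (-0.66) did not pass.

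PIR3 (YKL163W, chrXI:144401-145378, plus strand) encodes a wall protein with internal repeats that is bound to glucan through alkali-labile links. In BY4743 it was at 4.5, 7.83 and 3.63 CPM unstressed, at 32.2, 30.2 and 23.5 CPM at 30 min and at 112, 112 and 117 CPM at 3 h. In BC187 it was at 3.12, 4.20 and 2.50 CPM unstressed, at 4.74, 6.16 and 5.36 CPM at 30 min and at 122, 192 and 85.0 CPM at 3 h. The BY4743 libraries at 30 min were above every other library of that time. In NCYC3290 it was at 1.51, 6.47 and 4.58 CPM unstressed, at 5.09, 2.26 and 1.86 CPM at 30 min and at 255, 370.1 and 244 CPM at 3 h, and in YPS128 it was at 5.37, 6.22 and 2.11 CPM unstressed, at 3.92 and 0.573 CPM at 30 min and at 311, 328 and 185 CPM at 3 h. In these strains the 30 min libraries held 2 to 18 reads and overlapped the unstressed ones, and the 3 h libraries held 1346 to 2066. PIR3 rose at 3 h by 6.13 ± 0.32 (edgeR adjusted p = 1.45e-15) in NCYC3290, by 6.04 ± 0.33 (edgeR adjusted p = 3.2e-15) in YPS128, by 5.32 ± 0.33 (edgeR adjusted p = 3.21e-14) in BC187 and by 4.49 ± 0.30 (edgeR adjusted p = 3.15e-13) in BY4743. At 30 min it rose in BY4743, with 2.43 ± 0.31 (edgeR adjusted p = 6.58e-08), and the other strains did not pass, with 0.74 ± 0.41 in BC187, -0.45 ± 0.44 in NCYC3290 and -1.35 ± 0.61 in YPS128. Without NCYC3290 replicate 1 the NCYC3290 value was -1.37 and passed as lower.

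CWP1 (YKL096W, chrXI:261132-261851, plus strand) encodes a mannoprotein of the wall. In BY4743 it was at 138, 152 and 85.1 CPM unstressed, at 966, 1002 and 1069.5 CPM at 30 min and at 1569.6, 1295 and 1193 CPM at 3 h. BC187 had it at 439, 606 and 496 CPM unstressed, at 562, 766 and 659 CPM at 30 min and at 2203, 2636 and 1379 CPM at 3 h. Unstressed BC187 was above unstressed BY4743 by more than the spread of either. NCYC3290 had it at 29.2, 84.7 and 45.8 CPM unstressed, at 179, 82.7 and 84.9 CPM at 30 min and at 1319.6, 1581 and 1080.2 CPM at 3 h, and in YPS128 it was at 138, 287 and 119.8 CPM unstressed, at 215 and 229.9 CPM at 30 min and at 2186, 2451 and 1359 CPM at 3 h. At 30 min the BY4743 and BC187 libraries (562 to 1069.5 CPM) all lay above those of NCYC3290 and YPS128 (82.7 to 230 CPM), and at 3 h the 4 strains overlapped. CWP1 rose at 3 h by 4.69 ± 0.32 (edgeR adjusted p = 3.89e-13) in NCYC3290, 3.64 ± 0.31 (edgeR adjusted p = 5.39e-11) in YPS128, 3.49 ± 0.30 (edgeR adjusted p = 6.24e-11) in BY4743 and 1.99 ± 0.28 (edgeR adjusted p = 5.26e-07) in BC187. BY4743 had risen by 3.05 ± 0.29 at 30 min, and NCYC3290 by 1.19 ± 0.29, which rested on replicate 1, since the value without it was 0.48 and did not pass.

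**Figure D2:**
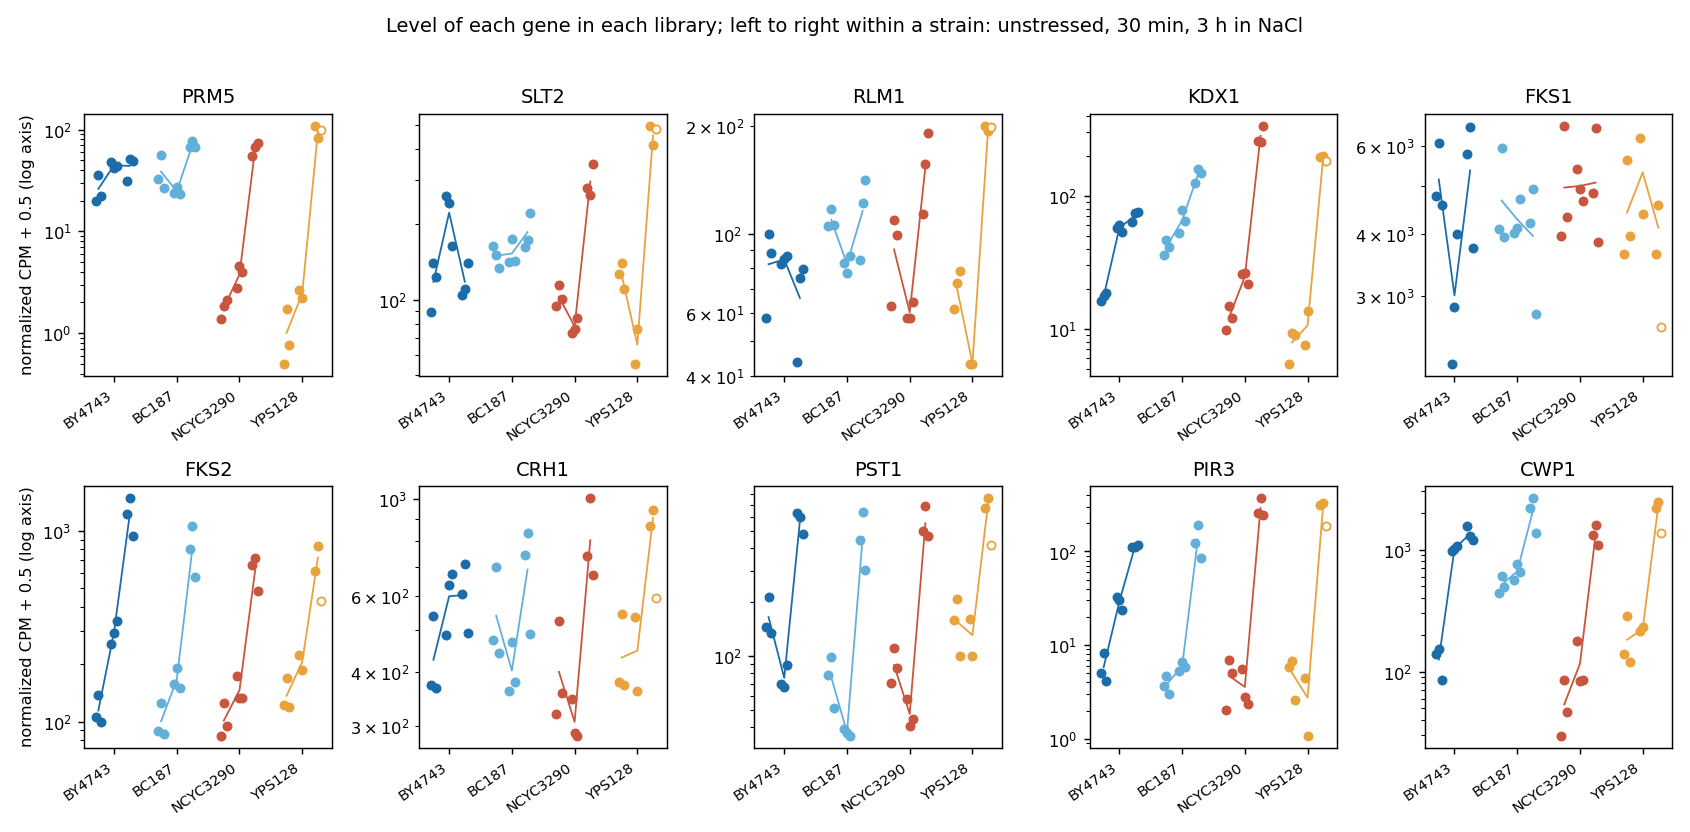
The level of each gene is plotted for each library on a log axis of CPM plus 0.5, with unstressed, 30 min and 3 h libraries from left to right within each strain, lines through the group means and an open point for YPS128 replicate 3 at 3 h. PRM5 of NCYC3290 and YPS128 starts at 0 to 1.59 CPM and reaches 54.8 to 107 CPM, while FKS1 stays between 2197 and 6579 CPM throughout.

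Whether the strains responded differently was tested on the difference between the mean log2 fold changes of the strain pairs. At 3 h, 7 of the 10 genes rose more in NCYC3290 and YPS128 than in BY4743 and BC187 (13.7% of all genes) and 1, FKS2, rose less (17.2%). PRM5 had the largest difference, 5.81 ± 0.33 (edgeR adjusted p = 7.75e-14) on the log2 scale, and 6.77 without YPS128 replicate 2, followed by KDX1 with 2.78 ± 0.16 (edgeR adjusted p = 8.31e-14). The signalling genes SLT2 and RLM1 differed by 1.55 ± 0.18 (edgeR adjusted p = 2.8e-07) and 1.31 ± 0.17 (edgeR adjusted p = 1.15e-06). Among the wall genes, CWP1 differed by 1.42 ± 0.28 (edgeR adjusted p = 0.00032), PIR3 by 1.18 ± 0.34 (edgeR adjusted p = 0.00917) and CRH1 by 0.58 ± 0.19 (edgeR adjusted p = 0.0226). FKS2 differed by -0.73 ± 0.18 (edgeR adjusted p = 0.00312), and with scaling by library totals by -0.25, which did not pass. PST1 (0.17 ± 0.23, interval -0.28 to 0.63) and FKS1 (0.03 ± 0.24, interval -0.44 to 0.51) did not pass, and both did with library totals (0.66 and 0.51). The CRH1 difference was close to the threshold, and was lost in 7 of the 20 alternative fits, with values of 0.52 to 0.62. These were the fits with no replicate block, with a term per culture, and without BY4743 replicate 2 (0.55), BC187 replicate 2 (0.55) or 3 (0.54), NCYC3290 replicate 1 (0.54) or YPS128 replicate 1 (0.52). With library totals the median of all genes at 3 h moved from 0.03 to 0.50 in this contrast, and from 0.07 to 0.65 in NCYC3290 and 0.09 to 0.85 in YPS128, so the folds given here are relative to the TMM scale. With library totals 9 of the 10 genes differed as higher and 0 as lower, where 87.3% of the calls among all genes were higher, against 44.4% with TMM.

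At 30 min the contrast went mostly the other way. Of the 10 genes, 4 responded less in NCYC3290 and YPS128 (13.1% of all genes) and 1, PRM5, more (14.7%). PIR3 differed by -2.49 ± 0.45 (edgeR adjusted p = 0.000137), SLT2 by -1.11 ± 0.19 (edgeR adjusted p = 5.03e-05) and CWP1 by -1.0 ± 0.29 (edgeR adjusted p = 0.01). Without NCYC3290 replicate 2 the CWP1 difference was -0.72 and did not pass, and without YPS128 replicate 1 the PIR3 difference was -3.33. PRM5 differed by 1.60 ± 0.50 (edgeR adjusted p = 0.0173), on 5 to 18 reads per NCYC3290 and YPS128 library at that time, by 1.12 without YPS128 replicate 1, which did not pass, and by 2.56 without YPS128 replicate 2. FKS2 differed by -0.50 ± 0.19 (edgeR adjusted p = 0.0409), and this call was lost in 10 of the alternative fits, with values of -0.51 to -0.37. They included the fits with no replicate block (-0.46) and without BY4743 replicate 3 (-0.42), BC187 replicate 1 (-0.51) or 3 (-0.48), NCYC3290 replicate 2 (-0.42) or 3 (-0.50), or YPS128 replicate 2 (-0.37). As pair means, SLT2, PIR3 and CWP1 thus responded less at 30 min and more at 3 h in NCYC3290 and YPS128, each past the threshold. Not every strain followed its pair, since CWP1 at 30 min rose in NCYC3290 (1.19, and 0.48 without replicate 1) and did not pass in BC187. Against the mean of the 4 strains at 3 h, CWP1 differed only in BC187 (-1.46) and NCYC3290 (1.23), and PIR3 only in BY4743 (-1.0). The pair contrasts at 30 min and 3 h share the unstressed libraries. With library totals 6 of the 10 genes responded less at 30 min and 1 more, where 18.5% and 8.54% of all genes did.

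Where each strain was set against the mean response of the 4 strains, the 30 min differences were mostly in BY4743, with 8 of the 10 genes (45.9% of all genes), against 3 in YPS128 (10.3%), 1 in BC187 (2.08%) and 0 in NCYC3290 (2.18%). In NCYC3290 at 30 min 0 of the 10 genes had an unadjusted p under 0.05 and DESeq2 called 0. BY4743 responded more than the mean for SLT2, RLM1, KDX1, FKS2, CRH1, PIR3 and CWP1 and less for FKS1. At 3 h all 4 strains differed from the mean, with 6 genes in BY4743 (22.6%), 5 in BC187 (5.64%), 5 in YPS128 (24.1%) and 4 in NCYC3290 (3.54%). PRM5, SLT2 and KDX1 were among them in each strain, lower than the mean in BY4743 and BC187 and higher in NCYC3290 and YPS128. The SLT2 call in NCYC3290 was lost in 7 of the 20 alternative fits (0.50 to 0.62), with a term per culture and without BY4743 replicate 2, BC187 replicate 1 or 2, NCYC3290 replicate 1 or 3 or YPS128 replicate 2. In BC187 the SLT2 call was lost without BC187 replicate 1 (-0.54) or 2 (-0.58), and the PRM5 call in NCYC3290 was lost without YPS128 replicate 2 (1.40). With library totals the genes past the threshold at 3 h numbered 8 in BY4743 and 6 each in BC187 and YPS128, with 5 in NCYC3290, and of the calls among all genes 12% were higher in BY4743 (47.1% with TMM) and 85.3% in YPS128 (48.7%).

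**Figure D3:**
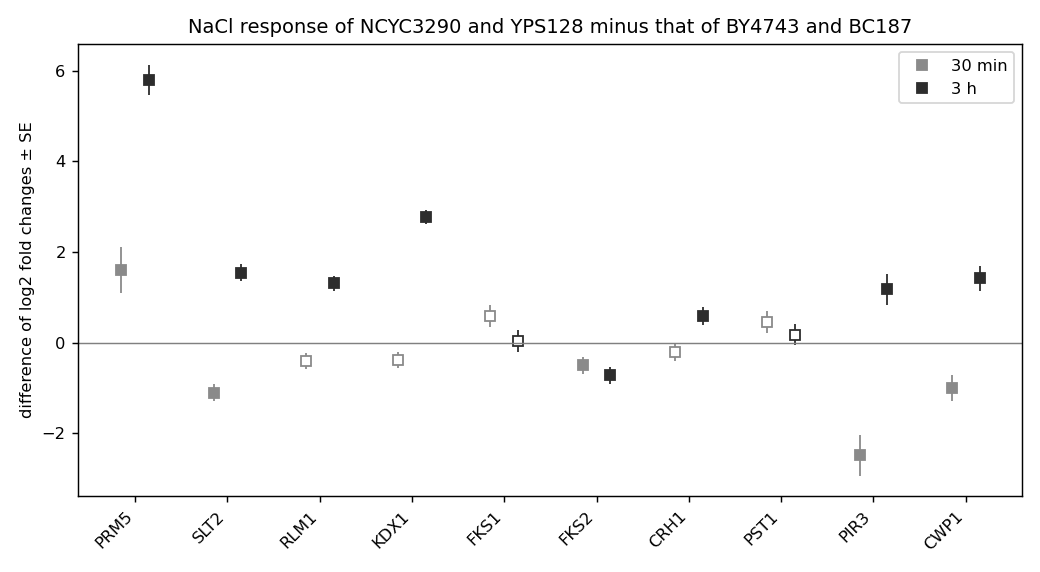
The log2 NaCl response of NCYC3290 and YPS128 minus that of BY4743 and BC187 is plotted with its standard error for the 10 genes at 30 min (grey) and 3 h (black); filled squares passed an adjusted p of 0.05. SLT2, PIR3 and CWP1 lie below 0 at 30 min (-1.11, -2.49 and -1.0) and above 0 at 3 h (1.55, 1.18 and 1.42), and PRM5 lies above 0 at both times.

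Between 30 min and 3 h, 9 of the 10 genes rose in NCYC3290 (27.6% of all genes) and in YPS128 (29.6%), 8 in BC187 (28.6%) and 5 in BY4743 (23.5%), where SLT2 alone fell (25.6%). None fell in BC187, NCYC3290 or YPS128 by edgeR, by an unadjusted p under 0.05 or by DESeq2, against 23.8%, 27.1% and 26.3% of all genes. With library totals 10 rose in NCYC3290 and in YPS128, 8 in BC187 and 4 in BY4743, where 2 fell, while of the calls among all genes 84.4%, 89.6%, 73.4% and 39.1% were higher (50.5%, 53%, 54.6% and 47.8% with TMM). FKS2 rose in this interval by 1.82 to 2.28 on the log2 scale in the 4 strains, PST1 by 2.46 to 3.60 and PIR3 by 2.06 to 7.39. The PIR3 value of YPS128 was 9.09 without replicate 1. PRM5 and CWP1 did not pass in BY4743 (0.00 ± 0.23 and 0.44 ± 0.27), and rose in the other 3 strains by 1.56 to 5.70 and 1.62 to 3.50. KDX1 in BY4743 passed narrowly (0.35 ± 0.14 (edgeR adjusted p = 0.0426)) and was lost in 14 of the alternative fits, including each in which a BY4743 or BC187 replicate was left out, with values of 0.19 to 0.43. The FKS1 rise in BY4743 (0.83 ± 0.24) did not pass without replicate 1 (0.55) or 2 (0.63), and the RLM1 rise in BC187 (0.48 ± 0.16) did not pass without replicate 2 (0.38) or 3 (0.35). CRH1 did not pass in BC187 without replicate 1 (0.56) or in YPS128 without replicate 2 (0.70).

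In unstressed cells, basal levels were compared between each strain and the mean of the 4 strains, on 5644 genes. PRM5 differed in every strain, with 2.90 ± 0.14 (edgeR adjusted p = 5.16e-16) in BC187, 2.39 ± 0.15 (edgeR adjusted p = 8.03e-14) in BY4743, -1.89 ± 0.34 (edgeR adjusted p = 9.55e-05) in NCYC3290 and -3.40 ± 0.32 (edgeR adjusted p = 1.03e-09) in YPS128. The order of levels was BC187, BY4743, NCYC3290 and YPS128. Neighbours differed between BC187 and BY4743 (-0.52 ± 0.16 for BY4743 minus BC187, edgeR adjusted p = 0.00884) and between BY4743 and NCYC3290 (4.27 ± 0.28, edgeR adjusted p = 1.56e-13), and NCYC3290 minus YPS128, at 1.51 ± 0.67, did not pass (edgeR adjusted p = 0.0883). The summed counts of BY4743 exceeded those of NCYC3290 by a ratio of 19.8 (12.2 to 34.3) and those of YPS128 by a ratio of 58.8 (25 to 182), with 95% counting intervals. KDX1 was high in BC187 (1.37 ± 0.09) and low in YPS128 (-1.10 ± 0.12) and NCYC3290 (-0.42 ± 0.11). CWP1 was high in BC187 (1.74 ± 0.16) and low in NCYC3290 (-1.60 ± 0.21), and BY4743 and YPS128 lay between. PST1 was higher in BY4743 (0.54) and YPS128 (0.43) and lower in BC187 (-0.62) and NCYC3290 (-0.35). The SLT2, RLM1, FKS1, FKS2 and CRH1 differences were all between -0.29 and 0.33, and no PIR3 difference passed the test. Of the 10 genes, 6 were higher and 2 lower in BC187 (13.7% and 16.5% of all genes). The counts were 3 and 0 in BY4743 (25% and 24.6%), 2 and 3 in YPS128 (22.8% and 17.2%) and 0 and 7 in NCYC3290 (15.1% and 14.4%). With library totals YPS128 had 1 higher and 5 lower (11.4% and 40.6% of all genes) and NCYC3290 0 and 5 (22.3% and 9.44%), with BC187 (14.4% and 14.9%) and BY4743 (35.4% and 16.5%) as before. For both counts of 0, edgeR at an unadjusted p under 0.05 and DESeq2 also gave 0. With no replicate block 4 genes passed in BC187 and 2 each in YPS128 and NCYC3290, and FKS1 did not pass in BY4743 (0.12). The calls lost were those of SLT2, RLM1, FKS2 and CRH1 in BC187, of SLT2, KDX1 (-0.42), FKS2, CRH1 and PST1 in NCYC3290 and of RLM1, FKS2 and PST1 in YPS128. Differences this small also rested on single cultures. Without BC187 replicate 1, SLT2 (0.15) and RLM1 (0.20) did not pass in BC187, FKS2 did not pass there without any 1 of its 3 replicates (-0.20, -0.18 and -0.17), and without NCYC3290 replicate 1, SLT2 (-0.24), CRH1 (-0.12), PST1 (-0.24) and FKS2 (-0.11) did not pass in NCYC3290. SLT2 did not pass there without NCYC3290 replicate 2 (-0.26) either, and FKS2 was lost there in 14 of the 18 alternative fits (-0.16 to -0.087), the DESeq2 Wald test, library totals and each BY4743 or BC187 replicate left out among them. FKS1 in BY4743 did not pass without BY4743 replicate 1 (0.087) or 3 (0.14), NCYC3290 replicate 1 (0.12) or 3 (0.13) or YPS128 replicate 1 (0.12), and RLM1 in YPS128 not without replicate 2 (-0.22). The PRM5 difference in YPS128 was -4.43 without YPS128 replicate 2, and the one in NCYC3290 was -1.55 without the same library and did not pass.

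Per kilobase of coding length, the order of the 10 genes shifted with the treatment. In unstressed cells FKS1 had the highest mean level, 784 to 914 CPM per kilobase over the 4 strains, with CWP1 at 73.9 to 713 and CRH1 at 263 to 353, and PIR3 had 3.35 to 5.44. At 3 h CWP1 was at 1843 to 3220 CPM per kilobase, above FKS1 at 704 to 953 in each strain, and PIR3 was at 116 to 327. The PIR3 level per kilobase then overlapped the range of FKS2, 110 to 213.

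Across the 12 group means of log2 CPM, the genes whose pattern was most like that of PRM5 were ICL2 (r = 0.97), SUL1 (0.95) and ATG40 (0.95). For SLT2 they were HPR1 (0.97), EPO1 (0.97) and SBE2 (0.94), for KDX1 OYE3, CRG1 and GLN3 (0.95 each), and for FKS2 PCL5 (0.96), GPG1 (0.95) and PEP4 (0.95). None of these is on the list of other pathway genes. Within the set, SLT2 and RLM1 had r = 0.92, PRM5 and KDX1 0.89, FKS2 and PIR3 0.91 and CRH1 and PIR3 0.90, while FKS1 had r between -0.52 and 0.10 with the other 9. These coefficients describe 12 points that share strains, cultures and scaling.

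A list of 60 other genes of the pathway was written with earlier results of these data known, and all passed the filter. At 3 h, 31 were higher and 13 lower in NCYC3290, 27 and 12 in YPS128, 22 and 6 in BC187 and 21 and 6 in BY4743, with median log2 fold changes of 0.35, 0.30, 0.11 and 0.27. Among all genes the shares were 32.4% and 27.4%, 34.1% and 29.1%, 30.6% and 23.9%, and 23.8% and 20.4%, against which 31 and 13 of 60 are 51.7% and 21.7% in NCYC3290. Higher in all 4 strains were 15 of the 60 (15.8% of all genes), and 1 of the 60 was lower in all 4 (13.8% of all genes). The latter was the CRH1 relative UTR2 (-1.43 to -0.53), chosen here after its values were seen. The UTR2 call did not pass in BC187 without replicate 2 (-0.43) or 3 (-0.47) or in YPS128 without replicate 2 (-0.50). With library totals UTR2 did not pass in BC187 (-0.27) or NCYC3290 (-0.31), and the YPS128 value was 0.04. With library totals the counts at 3 h were 45 higher and 3 lower in YPS128, 43 and 4 in NCYC3290, 31 and 2 in BC187 and 31 and 4 in BY4743, where 60.7%, 56.6%, 40.5% and 29.2% of all genes were higher and 10.2%, 11.7%, 14.8% and 14.9% lower. The largest mean rises were those of SPI1 and SED1, which encode anchored wall proteins. SPI1 rose by 3.22 to 4.04 in the 4 strains, and SED1 by 6.14 in NCYC3290 and 2.31 to 2.47 in the others. Among the negative regulators were BAG7, a GTPase-activating protein for Rho1, at 1.76 to 3.70, the Slt2 phosphatase SDP1 at 1.14 to 2.04 and the tyrosine phosphatase PTP2 at 0.59 to 2.68. ROM1, an exchange factor for Rho1, rose by 1.60 to 1.92, the kinase gene YPK2 by 0.95 to 2.53 and SRL3, which encodes a relative of the cell cycle repressor Whi5, by 1.03 to 4.23. Of the 15 genes for sensors and signalling, 4 or 5 were higher at 3 h in each strain, a share near that of all genes (23.8% to 34.1%). The BY4743 call of PTP2 did not pass without BY4743 replicate 1 (0.47) or 2 (0.63) or NCYC3290 replicate 3 (0.55), that of SDP1 not without BY4743 replicate 1 (0.85) or 3 (1.0), and the BC187 call of SRL3 not without BC187 replicate 3 (0.68).

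**Figure D4:**
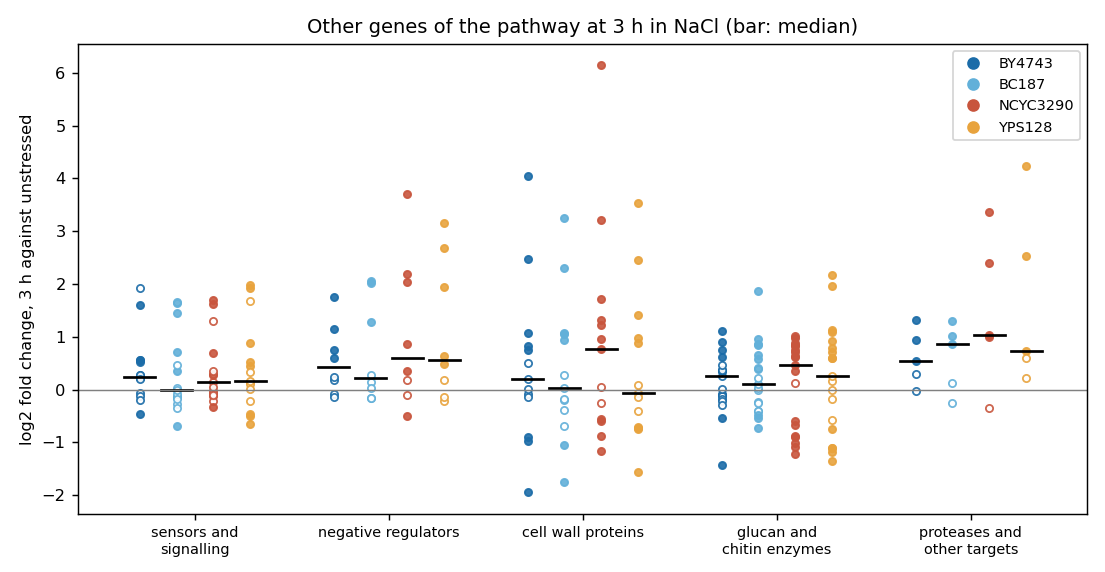
The log2 fold change at 3 h of the 60 other pathway genes is plotted by role and strain, with filled points past an adjusted p of 0.05 and a bar at each median. SED1 in NCYC3290 (6.14) is the highest point, and the medians of the sensors and signalling genes lie between -0.01 and 0.24.

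In the contrast of NCYC3290 and YPS128 with BY4743 and BC187 at 3 h, 19 of the 60 rose more and 14 less (13.7% and 17.2% of all genes), with a median of 0.09 beside 0.03 for all genes, and with library totals 35 rose more and 7 less (42.2% and 6.12%). The largest differences were those of SRL3 (2.63), TIR1 (2.42), SED1 (1.91), TIP1 (1.77), CRR1 (1.61), BAG7 (1.52), PTP2 (1.5) and YPK2 (1.34). As given above, SED1 rose far more in NCYC3290 than in YPS128, whose rise was near those of BY4743 and BC187. TIR1 and TIP1, relatives that encode wall mannoproteins, fell in BY4743 at 3 h (-1.95 and -0.98) and rose in NCYC3290 (1.32 and 1.22). Without BY4743 replicate 2 the fall of TIP1 in BY4743 did not pass (-0.67), and the rises in NCYC3290 did not pass without replicate 2 (1.15) or 3 (1.02) for TIP1 and replicate 1 (1.09) for TIR1. TIR1 was also called higher in YPS128 at 3 h. That call was lost with the DESeq2 Wald test (0.84) and with a term per culture (0.73), among other fits. CRR1, which encodes a relative of the CRH1 enzyme, rose in YPS128 (2.18) and in NCYC3290 (0.71), the latter not passing without replicate 1 (0.75) or 2 (0.46). At 30 min 12 of the 60 responded more and 16 less in NCYC3290 and YPS128 (14.7% and 13.1% of all genes), and 9 and 20 with library totals (8.54% and 18.5%). Those that responded less included BAG7 (-1.92), SPI1 (-2.17), ROM1 (-1.77) and SDP1 (-1.55). TIP1 and TIR1 were among those that responded more, and with a term per culture neither passed (1.01 each).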

How the data were processed

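Gene counts were measured by RNA-seq in 4 strains at 3 times (12 groups, 35 libraries). The values used are raw counts per gene, deposited by the authors without normalization. Per the study's methods, rRNA-depleted TruSeq Stranded libraries were read as 100-base single-end reads, trimmed with Trimmomatic 0.3, mapped to S288c R64-1-1 with bwa-mem 0.7.12-r1039 and counted with HT-Seq 0.6.0. The strand and multi-mapping settings of HT-Seq are not given in the sources used here. All strains were mapped to the S288c reference, so divergence of a strain from it can lower the counts of a gene there. Every column of the table was mapped to a sample. Totals of 3629637 to 5866906 counts per library set the precision, and intervals on summed counts cover counting error only.

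The counts were fitted with the quasi-likelihood test of edgeR 4.0.16 (limma 3.58.1, R 4.3.3), with a term per group and per replicate number, robust dispersions and TMM factors. filterByExpr kept 5997 genes in the fit of NaCl responses (34 libraries) and 5644 in that of the 12 unstressed libraries. The biological coefficient of variation was 15.8% and 8.50%. Calls used Benjamini-Hochberg adjusted p-values over all genes of a contrast with a threshold of 0.05. A prior count of 2 was used for log2 CPM only, and the fitted log2 fold changes used the edgeR default. CPM used TMM factors over all 35 libraries. Values with ± are standard errors for log2 differences and SDs for ratios of levels. The standard errors were derived from the test, as the absolute log2 difference divided by the square root of its F statistic. Intervals of log2 differences are nominally 95% by the normal approximation. At low counts, as for PRM5 in unstressed YPS128, these errors and intervals can be too small. The code was tested on simulated data.

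Replicate numbers pair the libraries because all 4 strains of a replicate were cultured side by side, per the study's methods. Deviations of same-numbered libraries of different strains correlated above 0.1 in 18 of 18 pairs unstressed (0.221 to 0.56), in 5 of 15 at 30 min (-0.26 to 0.276) and in 12 of 15 at 3 h (0.0114 to 0.645). The 3 libraries of a culture share that culture.

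The alternatives were DESeq2 1.42.0 (Wald test), its size factors, upper-quartile factors, library totals, no filter, no replicate block, a term per culture, all 35 libraries, and leaving out each culture in turn. The genes and lists were chosen with earlier results of these data known. All 10 genes are named. Of 60 other pathway genes, the text names up to 8 past the threshold with one sign in all strains at 3 h, up to 8 with the largest strain-group difference at 3 h, and UTR2. The 3 genes with the highest correlation over 12 group means are named for PRM5, SLT2, KDX1 and FKS2. Of 6717 identifiers, 6025 matched the RefSeq annotation, and the others held 0.117% of counts. Sequences and coordinates are those of the RefSeq S288C R64 reference.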

Additional observations from a re-analysis of the deposited data

Results flagged for a closer look

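Of the 20 differences between the responses of NCYC3290 with YPS128 and of BY4743 with BC187 (10 genes at 2 times), 13 passed the test, where 14.7% of all genes were higher and 13.1% lower at 30 min and 13.7% and 17.2% at 3 h. At 3 h the log2 differences were 5.81 for PRM5, 2.78 for KDX1, 1.55 for SLT2, 1.42 for CWP1, 1.31 for RLM1, 1.18 for PIR3, 0.58 for CRH1 and -0.73 for FKS2. At 30 min they were 1.60 for PRM5, -2.49 for PIR3, -1.11 for SLT2, -1.0 for CWP1 and -0.50 for FKS2.

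The response of each strain was also tested against the mean response of the 4 strains, and 32 of 80 such differences (10 genes, 4 strains and 2 times) passed, beside 2.08% to 45.9% of all genes in a strain and time. At 3 h PRM5 differed in all 4 strains, by 3.94 in YPS128, 1.87 in NCYC3290, -2.83 in BC187 and -2.98 in BY4743 on the log2 scale. KDX1 differed by 1.49, 1.28, -1.51 and -1.27 and SLT2 by 0.95, 0.60, -0.63 and -0.92, in the same order of strains, and the SLT2 call in NCYC3290 was lost in 7 of 20 alternative fits, that in BC187 in 2 and the PRM5 call in NCYC3290 in 1. RLM1 differed by -0.84 in BY4743, -0.47 in BC187 and 1.06 in YPS128, the BC187 call being lost in 10 of 20 alternative fits (-0.48 to -0.38), with no replicate block, a term per culture and all 35 libraries among them. FKS2 differed by 0.57 in BY4743 and by -0.51 in YPS128, the latter lost in 6 alternative fits, with library totals (-0.18), no replicate block (-0.45), a term per culture (-0.51) and without YPS128 replicate 1 (-0.48) or 2 (-0.55) or BC187 replicate 1 (-0.50). PIR3 differed by -1.0 in BY4743, which did not pass without BY4743 replicate 2 (-0.73), and CWP1 by -1.46 in BC187 and 1.23 in NCYC3290. At 30 min most of the differences were in BY4743, which responded more than the mean for PIR3 (2.09), CWP1 (1.84), SLT2 (1.0), KDX1 (0.73), FKS2 (0.57), CRH1 (0.55) and RLM1 (0.43) and less for FKS1 (-0.62). Without BY4743 replicate 1 the FKS1 (-0.48) and RLM1 (0.30) calls were lost, as were FKS1 without BY4743 replicate 2 (-0.49) or YPS128 replicate 1 (-0.48), CRH1 without BY4743 replicate 3 (0.40) and RLM1 with no replicate block (0.44). YPS128 responded less than the mean for PIR3 (-1.69), CWP1 (-0.98) and SLT2 (-0.83), and BC187 less for PRM5 (-1.51). All 3 YPS128 calls rested on single libraries, since SLT2 did not pass without YPS128 replicate 1 (-0.66), PIR3 without replicate 2 (-0.74) and CWP1 without replicate 1 (-1.12) or 2 (-0.68), and with no replicate block neither PIR3 (-1.59) nor CWP1 (-0.90) passed. The 4 differences of a gene share the mean they are taken from, and the 2 times share the unstressed libraries.

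The YPS128 replicate 3 library at 3 h, which was left out of the fit of 34 libraries and entered only the alternative fit of all 35 libraries, was above the highest unstressed YPS128 library for 9 of the 10 genes. Its levels were 98.4 CPM for PRM5, 479.9 for SLT2, 199 for RLM1, 183 for KDX1, 427 for FKS2, 591 for CRH1, 416 for PST1, 185 for PIR3 and 1359 for CWP1. FKS1 was the gene without such a rise.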

How the results depend on the processing

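Over the 20 alternatives, 260 log2 differences of the 10 genes gave 5120 recomputed values, of which 4779 kept their direction and side of the threshold. Another 128 changed sign while past the threshold in neither fit, 158 lost a call, 52 gained one and 3 were called with the opposite sign. Those 3 were of FKS1 with library totals, to 0.64 for the NaCl response of YPS128 at 3 h and to 0.59 in NCYC3290 and 0.54 in YPS128 from 30 min to 3 h. UTR2, outside the 10, reversed to 0.0446 in YPS128 at 3 h with library totals. With no replicate block the number of the 10 genes changed in YPS128 at 30 min was 1 (2 with the block), and it was also 1 with a term per culture. With no replicate block the basal counts were 4 in BC187 (8 with it), 2 in NCYC3290 (7) and 2 in YPS128 (5), and no other count moved by more than 1.5 times. Leaving out 1 culture at a time gave 2 to 5 changed genes in BC187 at 30 min (4 in full), 3 to 6 in NCYC3290 (6) and 0 to 3 in YPS128 (2), 3 to 6 strain-group differences at 30 min (5), and 5 to 8 basal differences in BC187 (8) and 3 to 7 in NCYC3290 (7). At 3 h these counts were 6 or 7 in BY4743, 6 in BC187, 9 in NCYC3290, 9 in YPS128 and 7 or 8 for the strain-group difference. The causes of these changes were not tested. Depth limits PRM5 and PIR3, with 0 to 25 reads in unstressed and 30 min libraries of YPS128.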
